A study of Mus musculus with 7 samples.

Results

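The liver-enriched transcription factors *Hhex*, *Prox1*, *Onecut1*, *Cebpa*, *Hnf4a*, *Creb3l3*, *Nr1h4*, *Nr5a2* and *Nr1i3* are read here in posterior second heart field tissue of mouse embryos that lack Sonic hedgehog. They are 9 of the 21475 genes named on the array, and 16 of its 34747 gene-named probes carry their names. The set was chosen by the difference between *Shh* mutant and wild-type pools in these same arrays, so the values of the 9 genes are a description and no test is given for them. RNA came from tissue microdissected at E9.5, which held the posterior second heart field together with the attached foregut. That field is the progenitor region behind the heart that contributes to the atrial septum. The study states that the heart was left out of the dissection, but cardiomyocyte genes read high in both genotypes, as given below. The mutant group is 4 pools of Shh -/- embryos and the control group is 3 pools of Shh +/+ embryos, from matings of Shh +/- males to superovulated Shh +/- females. The background of all pools was C56B/6 and CD-1 mixed, as the labels spell it. The *Shh* mutation is in every cell of the embryo, and each pool is several embryos, so the spread between pools is the only error these data hold. Each pool was labelled with 1 dye and hybridized to 1 Agilent array. Pools 1, 3 and 4 share a slide between a mutant and a wild-type pool, always with the mutant at the first position. The slide of mutant pool 2 held no other pool, and its label records a possible leak during hybridization, so values without it are given for the members and for the called genes.

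Liver arises from the ventral foregut endoderm next to the heart and the septum transversum. *Hhex*, a homeobox factor, and *Prox1*, a homeodomain factor, are known from mouse genetics to be needed for the hepatic bud to thicken and for its cells to leave the epithelium. *Onecut1* and *Cebpa* act in the differentiation of hepatoblasts, the precursors of hepatocytes. *Hnf4a* is a nuclear receptor that maintains hepatocyte expression of apolipoproteins and clotting factors. *Creb3l3* is a membrane-bound bZIP factor of liver and gut that controls triglyceride and acute phase genes. *Nr1h4* is the bile acid receptor FXR, *Nr5a2* is the receptor LRH-1 of bile acid and cholesterol genes, and *Nr1i3* is the drug-sensing receptor CAR. Whether the bud-forming factors were higher together with the metabolic regulators is the question addressed here.

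Each value rests on the oligonucleotide that reads it, and the first 30 bases of the 60-base probes are shown for the 4 genes on which this question turns. For *Hhex* and *Hnf4a* a probe nearer the 3′ end of the gene, which gave the larger difference, is followed by one further from it. Coordinates are those of the array annotation on mm9.
Creb3l3, chr10:80547319-80547378: tttacccatacatgcagacagactgacact
Hnf4a near the 3′ end, chr2:163398074-163398133: tattacagtacagggaacatggaataaagg
Hnf4a furthest from the 3′ end, chr2:163378302-163378361: ccgacaatgtgtggtagacaaagataagag
Hhex near the 3′ end, chr19:37514969-37515028: tctcacacgaactagaaatagcaggacaat
Hhex further from the 3′ end, chr19:37511721-37511780: acaaaaggaaaggcggtcaagtgaggttct
Prox1 near the 3′ end, chr1:191942646-191942705: ggggggaataaagcagtttaaagttgtata

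All 9 genes have a RefSeq promoter window on GRCm38.p6, 13 windows in all, of which the 250 bases before the start were searched on both strands for short forms of the sites of liver and Hedgehog factors. For FOXA factors the letters TGTTTAC and also TGTTTGC were searched, for GATA factors AGATAA, for ONECUT factors ATCGAT as well as ATCAAT, for HNF4 CAAAGTCCA, for C/EBP factors TTGCGCAA, for CREB factors TGACGTCA and for GLI factors GACCACCCA, which makes 9 motifs. AGATAA was in 4 of the 13 windows, those of *Creb3l3*, *Hnf4a*, *Nr1h4* and *Nr5a2*, and in 9.99% of all 32851 windows of this length. TGTTTGC was in 1 window each of *Creb3l3* and *Prox1* (4.30% of all windows), and ATCAAT was in 1 window of *Hnf4a* (6.72%). The other 6 motifs were in no window of the 9 genes, and each was in at most 3.17% of all windows. Both *Creb3l3* windows and the *Hnf4a* window with such a match, and that of *Hhex*, which had none, are shown 5′ to 3′ on the gene's strand, with the matches in capitals. A match is a run of letters and not a measured site.
Creb3l3 promoter, chr10:81092592-81092841, minus strand, AGATAA: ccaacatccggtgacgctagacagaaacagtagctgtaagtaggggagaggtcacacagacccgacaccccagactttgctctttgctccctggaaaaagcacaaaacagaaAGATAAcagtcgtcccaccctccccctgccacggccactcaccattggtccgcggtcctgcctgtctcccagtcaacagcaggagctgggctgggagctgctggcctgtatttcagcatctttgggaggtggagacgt
Creb3l3 second promoter, chr10:81098873-81099122, minus strand, TGTTTGC on the opposite strand: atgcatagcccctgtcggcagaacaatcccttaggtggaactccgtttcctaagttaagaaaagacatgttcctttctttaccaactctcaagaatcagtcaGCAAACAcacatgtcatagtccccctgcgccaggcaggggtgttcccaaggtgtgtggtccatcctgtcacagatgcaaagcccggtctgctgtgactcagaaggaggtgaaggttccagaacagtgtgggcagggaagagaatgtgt
Hnf4a promoter, chr2:163506607-163506856, plus strand, ATCAAT and AGATAA: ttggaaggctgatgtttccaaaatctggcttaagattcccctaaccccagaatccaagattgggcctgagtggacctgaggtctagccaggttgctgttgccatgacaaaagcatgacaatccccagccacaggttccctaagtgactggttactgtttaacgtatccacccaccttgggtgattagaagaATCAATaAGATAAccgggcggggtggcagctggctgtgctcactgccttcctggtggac
Hhex promoter, chr19:37434591-37434840, plus strand: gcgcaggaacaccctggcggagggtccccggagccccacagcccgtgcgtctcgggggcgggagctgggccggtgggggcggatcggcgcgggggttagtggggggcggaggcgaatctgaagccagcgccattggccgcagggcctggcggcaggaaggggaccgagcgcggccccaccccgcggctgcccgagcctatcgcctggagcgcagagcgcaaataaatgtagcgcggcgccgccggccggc

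Signals are log2 values after background correction and variance stabilizing normalization across the 7 arrays. A gene-named probe was tested if all arrays of one genotype, or of both, read it well above background, and 23117 probes for 14891 genes passed. The 2 genotypes were set against each other by limma, and a probe was called at a Benjamini-Hochberg adjusted p under 0.05. Per array, 59.8% to 70.6% of probes passed the background flag, the array medians lay within 0.18 of each other, and the number of arrays limits the precision. *Shh*, the mutated gene, read 9.67, 9.39, 9.22 and 9.32 across the mutants and 10.72, 10.74 and 9.98 across the wild types, with no overlap and a log2 difference of -1.08 (SE 0.20, limma's adjusted p = 0.0654). Without wild-type pool 4 it was -1.33 (limma's adjusted p = 0.0406). Whether its probe lies in the deleted part of the gene is not given in the sources used here. Of the Hedgehog targets *Gli1* was at -1.02, *Ptch1* was at -1.17, both not called, and *Hhip* had a log2 difference of -2.83 (SE 0.18, limma's adjusted p = 0.00125), and -2.93 without mutant pool 2.

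The bud-forming factors were higher in the mutants at 1 probe each. *Hhex* (NM_008245) read 11.61, 11.55, 11.81 and 11.43 in mutant pools 1 to 4, against 10.93, 11.25 and 10.99 in wild-type pools 1, 3 and 4. The lowest mutant pool thus lay above the highest wild-type pool. The log2 difference was 0.55 (SE 0.13), which is 1.46-fold, and the same-slide differences were 0.68, 0.56 and 0.45. *Prox1*, read by its probe nearest the 3′ end (AK038396), was at 9.95, 9.90, 10.12 and 9.44 in the mutants and 9.34, 9.32 and 9.14 in wild type. Mutant pool 4 was the lowest of the mutants and stood 0.10 above the highest wild-type pool. The difference was 0.58 (SE 0.16), 1.50-fold, with same-slide differences of 0.61, 0.80 and 0.30. Leaving out mutant pool 2 gave 0.57 for both genes.

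The other probes of these genes did not separate the genotypes. The further *Hhex* probe read 6.42, 6.25, 6.55 and 5.97 in the mutants and 5.59, 6.18 and 6.46 in wild type, so the groups overlapped, and its difference was 0.22 (SE 0.22). Its same-slide differences were 0.83 on slide 1, 0.37 on slide 3 and -0.49 on slide 4. The 2 further *Prox1* probes gave differences of 0.03 and 0.30 (SE 0.22 each), with overlap at both and negative values on slide 4 at both (-0.60 and -0.28). Both carry the RefSeq accession NM_008937, which the separating AK038396 probe does not. The 3 *Prox1* probes fit within 1 gene length, but which transcript the AK038396 probe reads was not tested. The last of these is split on the array annotation, from 191977369 to 191984426 on chromosome 1, and its signal passed the background flag in 2 of 3 wild-type pools.

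**Figure D1:**
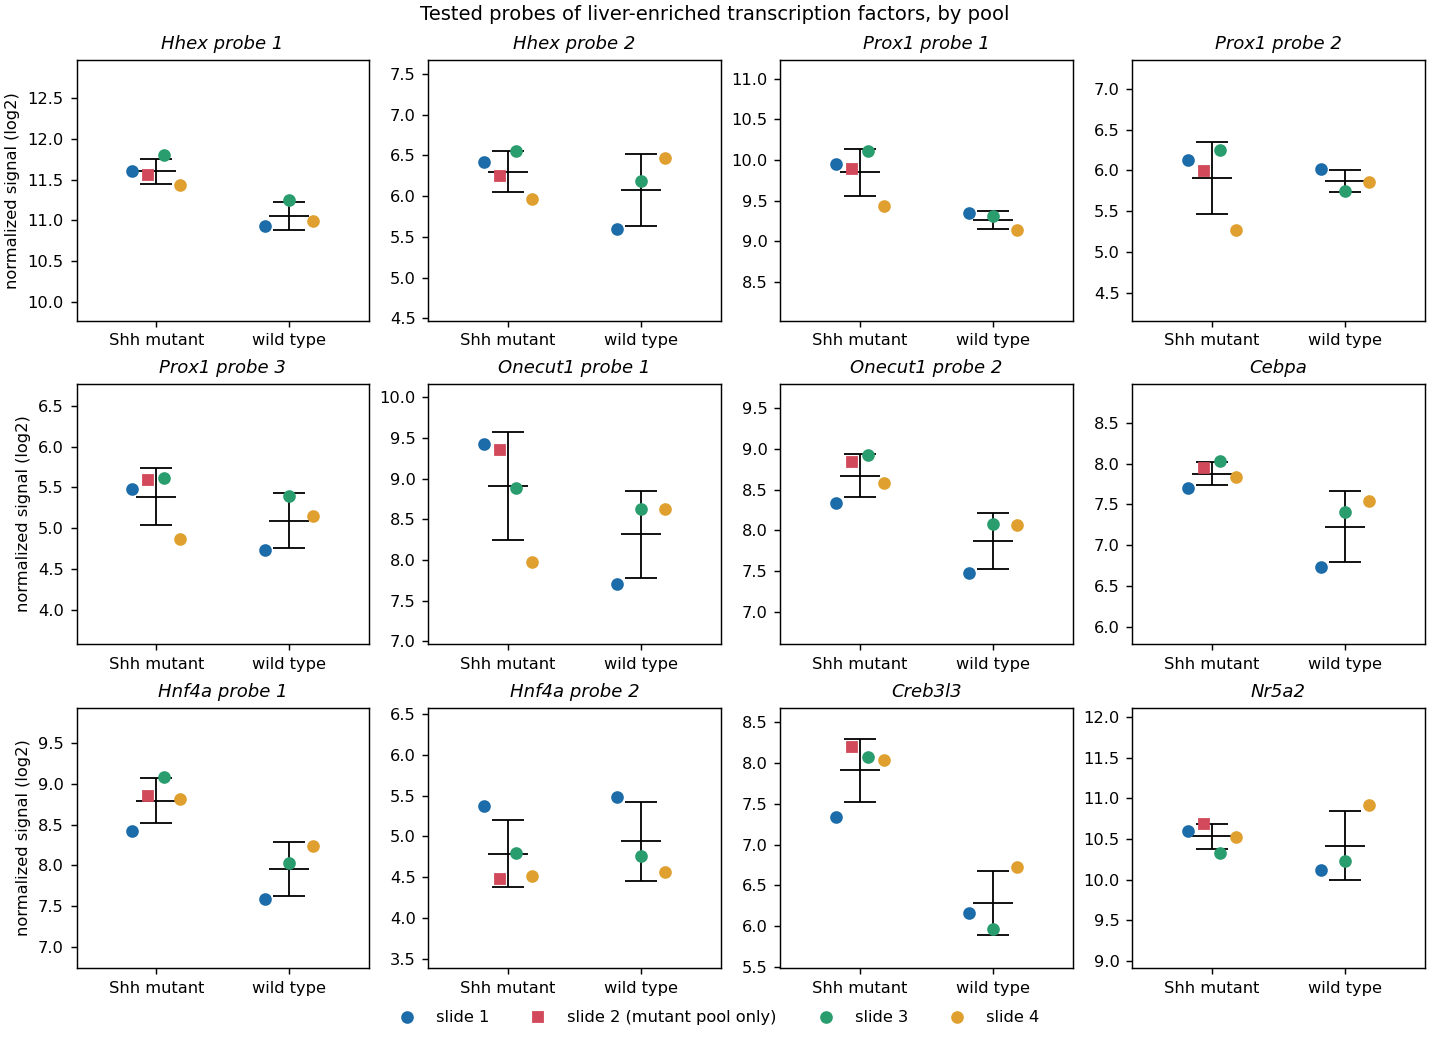
Normalized log2 signal (y axis, of equal length in each panel) of the 12 tested probes of the liver-enriched factors, with the 4 *Shh* mutant pools on the left of each panel and the 3 wild-type pools on the right. Colours mark the slide, the square is mutant pool 2, bars are the mean and SD of the pools, and probe 1 is the one with the highest mean. All mutant points lie above all wild-type points in 6 panels, 1 each for *Hhex*, *Prox1*, *Cebpa*, *Hnf4a* and *Creb3l3* and that of the AK051235 probe (*Onecut1* probe 2), which is not taken as a value of *Onecut1*.

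Among the metabolic regulators, *Creb3l3* had the largest difference of the 9 genes. Its single probe (NM_145365) read 7.34, 8.20, 8.08 and 8.04 in mutant pools 1 to 4 and 6.16, 5.97 and 6.73 in wild-type pools 1, 3 and 4. Mutant pool 1 was the lowest mutant and still lay 0.62 above the highest wild-type pool. The mutant mean was 7.91 ± 0.39 (SD, n = 4) and the wild-type mean 6.29 ± 0.39 (SD, n = 3), a difference of 1.63 (SE 0.24) or 3.09-fold. The same-slide differences were 1.18, 2.11 and 1.31, and without mutant pool 2 the value was 1.55.

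*Hnf4a* followed at its probe nearest the 3′ end (NM_008261), which read 8.42, 8.86, 9.08 and 8.81 in the mutants against 7.59, 8.02 and 8.24 in wild type. The groups did not overlap, and the difference was 0.84 (SE 0.20), 1.79-fold. Same-slide differences were 0.83, 1.06 and 0.57, and the value was 0.83 without mutant pool 2. The middle *Hnf4a* probe was well above background in 2 of 4 mutant pools and in all 3 wild-type pools, overlapped between genotypes and gave -0.15 (SE 0.27). The probe furthest from the 3′ end was not well above background on any array.

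The 3 remaining nuclear receptors showed no such separation. *Nr5a2* was well above background on all arrays and read 10.60, 10.69, 10.33 and 10.53 in the mutants and 10.12, 10.23 and 10.91 in wild type. Wild-type pool 4 was the highest of all 7, so the groups overlapped, with a difference of 0.11 (SE 0.19), 0.07 without mutant pool 2, and same-slide differences of 0.48, 0.09 and -0.38. *Nr1h4* read between 3.63 and 4.06 in the mutants and between 3.42 and 3.83 in wild type, and *Nr1i3* between 3.34 and 4.01 and between 3.40 and 3.79. Both probes were well above background in 0 of 7 pools, so no fold is given, and a difference was not detectable.

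Of the factors of hepatoblast differentiation, *Cebpa* (NM_007678) read 7.70, 7.95, 8.04 and 7.84 in the mutants and 6.73, 7.41 and 7.55 in wild type at its probe nearest the 3′ end. The genotypes did not overlap, and the difference was 0.65 (SE 0.20), 1.57-fold. It rested in part on wild-type pool 1, the lowest of the 7, without which it was 0.41, and was 0.64 without mutant pool 2. The other *Cebpa* probe was well above background in 1 of 4 mutant pools and 2 of 3 wild-type pools and was not tested.

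The 2 probes named *Onecut1* disagreed. The probe of the RefSeq transcript (NM_008262) read 9.43, 9.35, 8.88 and 7.98 in mutant pools 1 to 4 and 7.70, 8.62 and 8.62 in wild-type pools 1, 3 and 4. Mutant pool 4 lay below 2 of the wild-type pools, so the groups overlapped, and the same-slide differences ran from 1.73 on slide 1 through 0.26 on slide 3 to -0.64 on slide 4. The fitted difference was 0.60 (SE 0.37), 0.29 without wild-type pool 1 and 0.45 without mutant pool 2. The other probe (AK051235) read 8.34, 8.84, 8.93 and 8.58 against 7.48, 8.08 and 8.06, with no overlap, a difference of 0.80 (SE 0.20) and same-slide differences of 0.87, 0.84 and 0.52. Their starts lie 37033 bases apart on chromosome 9 in mm9, further than the 27728 bases of the RefSeq *Onecut1* gene in GRCm38.p6. At most 1 of them can therefore lie in that gene model, if the interval is alike in both builds, and RefSeq lists the non-coding genes *Gm16551* and *Gm33562* directly before *Onecut1*. Which transcript the AK051235 probe reads was not tested, and its value is not taken as one of *Onecut1*.

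Set side by side, the bud-forming factors *Hhex* and *Prox1*, each at its probe nearest the 3′ end, and 2 of the 5 metabolic factors, *Creb3l3* and *Hnf4a*, were higher in all 4 mutant pools, by different amounts. For *Prox1* this rests on the AK038396 probe, and its 2 probes with a RefSeq accession overlapped between genotypes. The smallest same-slide difference of *Creb3l3*, 1.18, was above the largest of *Hhex* (0.68) and of *Prox1* (0.80). The same-slide differences of *Hnf4a*, from 0.57 to 1.06, overlapped those of *Hhex* and *Prox1*. On slide 4 the difference was the smallest of the 3 slides for *Hhex*, *Prox1*, *Cebpa* and *Hnf4a*, but not for *Creb3l3*. Differences of different probes need not be on 1 scale, because each oligonucleotide has its own response to RNA amount. In bulk tissue a larger share of hepatic cells and more RNA per hepatic cell cannot be told apart.

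**Figure D2:**
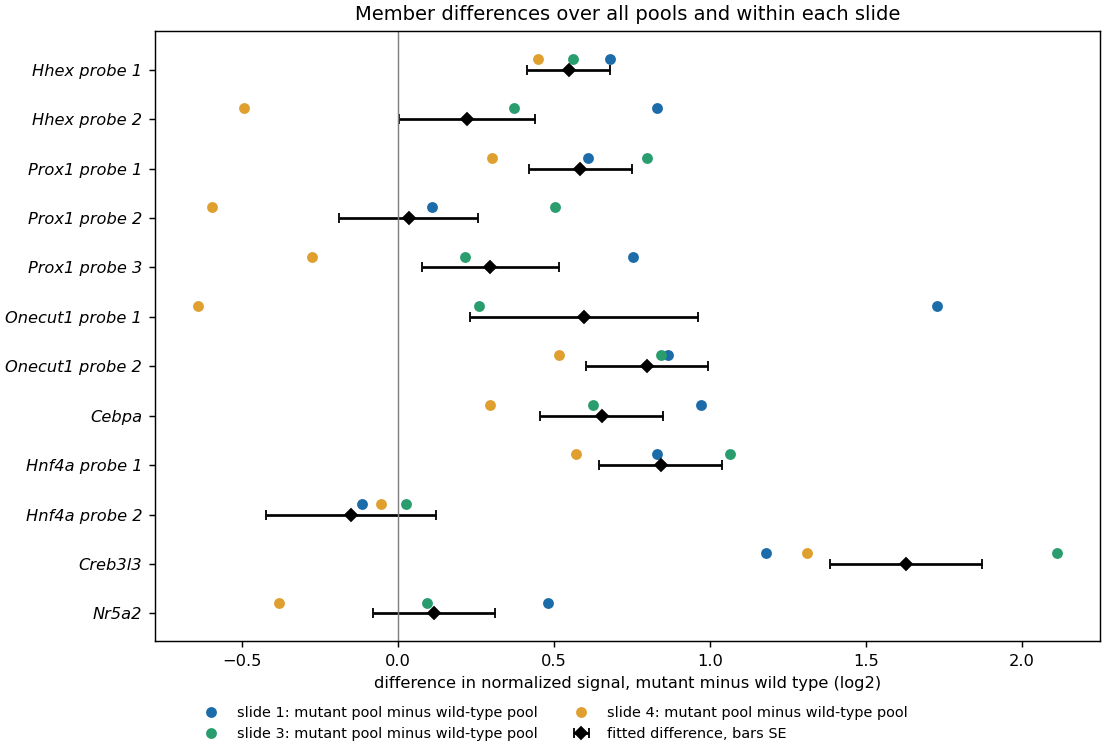
Log2 difference in normalized signal, mutant minus wild type (x axis), for the 12 tested probes (rows). Diamonds are the fitted differences over all 7 pools with bars of 1 SE, and circles are the mutant pool minus the wild-type pool of slides 1, 3 and 4. *Creb3l3* lies furthest to the right on slides 3 and 4 and over all pools, the RefSeq probe of *Onecut1* (probe 1) spreads most between slides, and for the further probes of *Hhex*, *Prox1* and *Hnf4a* the slide 4 circle is below 0.

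In 4 genes these differences went with both the position and the brightness of the probe. *Hhex*, *Prox1*, *Cebpa* and *Hnf4a* have several probes that fit within 1 gene length. In all 4 genes the probe nearest the 3′ end was well above background on all arrays and higher in every mutant pool. Of their 6 further probes, 0 separated the genotypes, 2 were well above background on all 7 arrays and 4 were tested. All 4 tested ones had a negative difference on slide 4. Position and brightness cannot be told apart in these 4 genes, and the part of each in these values was not tested.

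In counts, 7 of the 9 genes had a tested probe, and 12 of the 16 probes were tested. Of these 12, 11 had a higher mean in the mutants and 6, 1 of them the AK051235 probe, had every mutant pool above every wild-type pool, which held for 4.78% of the 23026 tested probes with a value on all arrays. Over the whole array limma called 129 of all 23117 probes (0.558%), of which 61 were higher in the mutants (0.264%). Without adjustment, 1841 probes had a p under 0.05. Because the genes were selected on this contrast, no call is given for them and nothing is read from their counts. With 1 probe a gene, the one with the highest mean among those tested, the median difference was 0.60 over the 7 members and 0.03 over all 14891 genes.

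With 1 pool left out the difference of *Creb3l3* lay between 1.48 and 1.83, and it was 1.53 with the replicate number, which marks the shared slide, as a block. With that block the other differences were 0.56 for *Hhex*, 0.57 for *Prox1*, 0.63 for *Cebpa*, 0.82 for *Hnf4a*, 0.45 for *Onecut1* and 0.06 for *Nr5a2*. Values as the authors deposited them put 3 of the 7 members higher in the mutants, *Creb3l3* (1.11), *Hnf4a* (0.21) and *Cebpa* (0.05), and the others lower, *Hhex* at -0.08, *Prox1* at -0.06, *Onecut1* at -0.07 and *Nr5a2* at -0.54. The arrays of that table are not on 1 level, and the median of all tested probes in it is -0.54. Set to 1 median per array, an alternative chosen after seeing the data, the same table gave 0.53 for *Hhex*, 0.55 for *Prox1*, 0.82 for *Hnf4a* and 1.72 for *Creb3l3*, and 7 of 7 were positive.

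**Figure D3:**
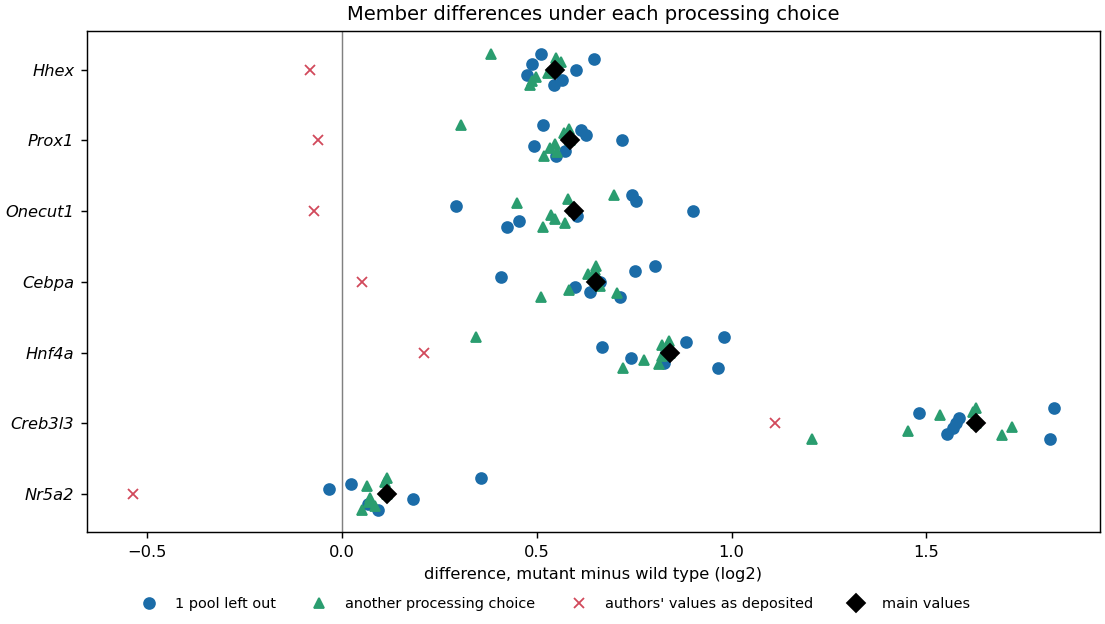
Log2 difference, mutant minus wild type (x axis), of the 7 members with a tested probe (rows) under each processing choice. Diamonds are the values reported here, circles leave out 1 pool each, triangles change another choice and crosses are the authors' deposited values as given. The crosses are shifted to the left for every gene, and *Nr5a2* is the only member for which a circle lies below 0.

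Factors that act with the members in early endoderm were next compared with limma. Of 10 partner factors, all tested, 5 had a positive difference (2 in the authors' values as deposited) and 0 were called in either direction. Over all 14891 genes, each read by 1 probe, 59.6% had a positive difference, 0.786% were called and 5.99% had every mutant pool above every wild-type pool. *Foxa3*, a forkhead factor of later hepatic endoderm, read from 7.78 to 8.16 in the mutants and from 6.82 to 7.39 in wild type, a difference of 0.76 (SE 0.16, limma's adjusted p = 0.0997), and 0.78 without mutant pool 2. In *Foxa3* and in *Gata6* (0.26), no pool of one genotype overlapped the other. The endoderm factors *Foxa1*, *Foxa2* and *Sox17* and the bud factor *Tbx3* gave values between -0.25 and -0.03, with overlap. The median over the 10 was 0.01.

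Relatives of the members from the same protein families were compared in the same way. Of 16 family relatives on the array, 15 were tested, 11 had a positive difference (2 in the authors' values as deposited) and 0 were called, with a median of 0.11, against 59.6% positive and 0.786% called over all genes. Pools of the 2 genotypes did not overlap at 1 higher and 1 lower relative. *Cebpd*, a bZIP relative of *Cebpa*, read from 12.91 to 13.25 in the mutants and from 12.60 to 12.66 in wild type, a difference of 0.47 (SE 0.12, limma's adjusted p = 0.160). The homeobox genes *Onecut2* (0.57, SE 0.28, limma's adjusted p = 0.732) and *Onecut3* (0.77, SE 0.36, limma's adjusted p = 0.675) overlapped between genotypes, and like the RefSeq probe of *Onecut1* they were lowest in mutant pool 4 among the mutants and in wild-type pool 1 among the wild types. Without wild-type pool 1 *Onecut2* was at 0.32. *Creb3*, *Creb3l1*, *Creb3l2* and *Creb3l4*, relatives of *Creb3l3*, lay between -0.04 and 0.27. Of 13 other regulators of liver metabolism, 11 were tested and 0 were called, with a median of -0.06. Of the 11, 4 had a positive difference (1 in the authors' values as deposited), against 59.6% of all genes. Without overlap, 1 was higher, against 5.99% of all genes, and 1 was lower, *Srebf1* at -0.13. *Ppara*, the fatty acid receptor, was at 0.50 (SE 0.16, limma's adjusted p = 0.330) without overlap, *Mlxipl* at 0.36 and *Rora* at -0.43, both with overlap. *Rora* was at -0.10 without mutant pool 4, and *Ppara* at 0.32 with quantile normalization. *Nr0b2*, a repressor induced by *Nr1h4*, was well above background in 1 mutant and 2 wild-type pools and was not tested.

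Textbook targets of the members could be read only in part. Of 7 targets of *Creb3l3*, 3 were tested, and *Apoc2*, an activator of lipoprotein lipase, was called. It read 9.66, 10.46, 10.45 and 10.64 in the mutants and 9.01, 8.78 and 9.13 in wild type, a difference of 1.33 (SE 0.23, limma's adjusted p = 0.0476), and 1.29 without mutant pool 2, where it was not called. *Apcs* was at 0.45 without overlap and *Apoa5* at 0.17 with overlap, and *Apoa4*, *Fgf21* and *Hamp* passed the background flag on 0 arrays. Of the targets of *Hnf4a*, 5 of 6 tested genes were higher in the mutants by mean, and *Ttr*, the thyroxine carrier, was called (0.91, SE 0.14, limma's adjusted p = 0.0318), but not without mutant pool 2, at 0.89. *Apoa1* (0.92, limma's adjusted p = 0.156) and *Apoa2* (0.74, limma's adjusted p = 0.309) were not. Although *Nr1h4* itself was below detection, 3 of 6 targets on the array, all bile transporters, were tested. *Abcb11*, the bile salt export pump, was at 6.41, 6.62, 6.46 and 6.26 in the mutants and 5.73, 5.72 and 5.82 in wild type, a difference of 0.68 (SE 0.12, limma's adjusted p = 0.0495), and *Slc51a* (0.65) and *Abcb4* (0.53) did not overlap and were not called. Of the other 3, *Fgf15*, an intestinal hormone, was above background in 2 wild-type and 0 mutant pools, *Slc51b* in 0 pools, and *Nr0b2* as given before. Across 17 alternatives *Abcb11* was called in 3 and ran from 0.21 to 0.82, and it was 0.63 without mutant pool 2, where it was not called. For *Nr5a2*, *Cebpa* and *Nr1i3*, the enzymes *Cyp7a1*, *Cyp8b1*, *G6pc* and *Cyp2b10* passed the flag on 0 arrays, *Scarb1* was at 0.01 and *Cps1* at 0.34.

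Among the lists, hepatoblast products held most calls. The list shares *Apoc2*, *Ttr*, *Apoa1* and *Apoa2* with the targets above, read by the same probes, so these are not separate results. All 21 measured genes had a higher mean in the mutants, also in the authors' values as deposited, with a median difference of 0.84, 18 of 21 did not overlap, and 7 were called, against 59.6% of all genes positive, 5.99% higher without overlap and 0.389% called higher. The 7 were *Alb* (1.22), *Ttr*, *Apoc2*, *Fga* (1.45), *Fgb* (0.82), *Fgg* (0.92) and *Ambp* (0.67), which encode plasma proteins, with limma's adjusted p between 0.0318 and 0.0495. *Ahsg* (1.61, limma's adjusted p = 0.0570) had the largest value of the list and was not called over all pools. It was called without mutant pool 1 (1.89, limma's adjusted p = 0.00734), but not with any other pool left out (limma's adjusted p from 0.120 to 0.294). *Afp*, the fetal albumin relative, was at 0.17. The summed linear signal of the 21 genes was 432421 to 527547 in the mutant pools and 334745 to 339335 in the wild-type pools. Such a sum adds unlike probes and weighs the brightest most, here *Afp* (mean 17.01 in the mutants) and *Dlk1* (16.66). It is not a level of a tissue, and the same holds for the sums of the lists below. The list was written with earlier results of these arrays known, and 0 genes of it were called with the replicate block, without mutant pool 2 or 3 or without wild-type pool 1, 3 or 4, and 1 without mutant pool 4. Without mutant pool 2 *Alb* was at 1.08, *Fga* at 1.55, *Fgb* at 0.75, *Fgg* at 0.86 and *Ambp* at 0.65. Each of the 7 kept a positive difference in all 17 alternatives and was called in 3 to 6 of them.

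**Figure D4:**
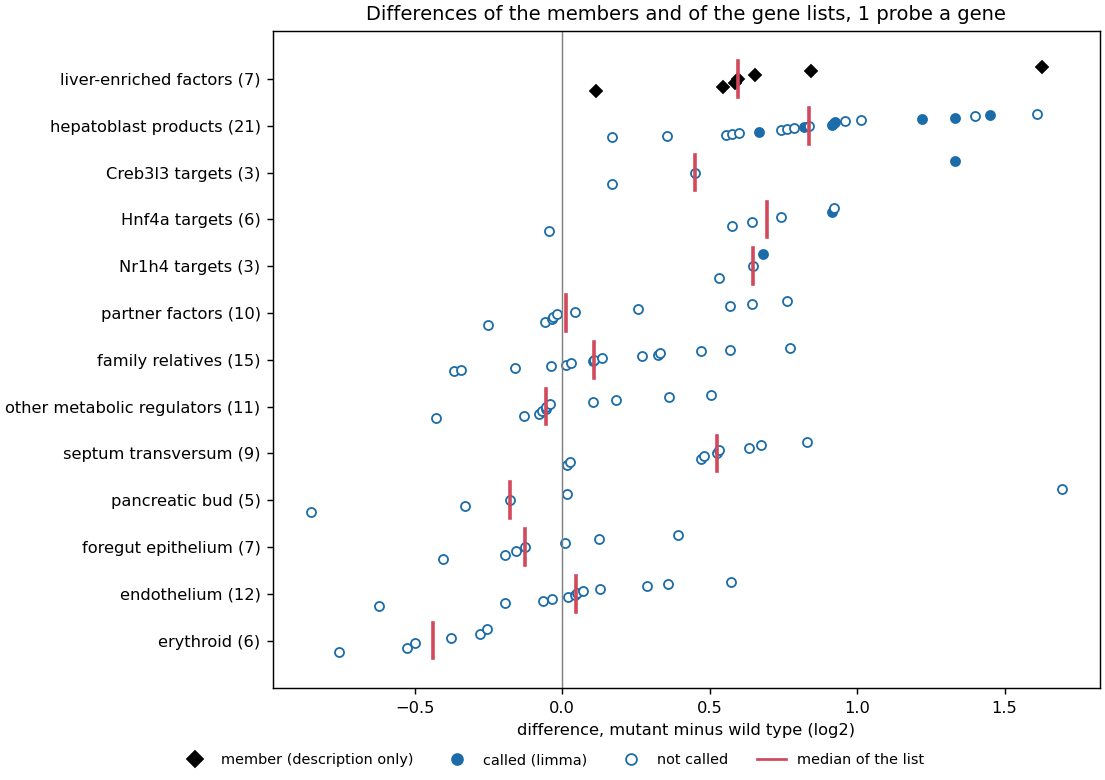
Log2 difference, mutant minus wild type (x axis), of the members and of 12 gene lists (rows, with the number of genes tested), 1 probe a gene. Black diamonds are the 7 members with a tested probe, filled circles are genes called by limma, open circles are genes not called and red lines are medians. Hepatoblast products lie to the right of 0 throughout, partner factors and relatives lie on both sides of it, and erythroid genes lie to the left, as 3 of the 6 did in the authors' values set to 1 median.

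Markers of other tissues near the dissected region, some of which express members, were read in the same arrays. For the counts here and in the next paragraph, 59.6% of all genes had a positive difference and 5.99% were higher without overlap. Markers of the septum transversum, the mesenchyme next to the liver bud, had 9 of 9 positive differences (7 with quantile normalization and 3 in the authors' values as deposited). Of these, 4 were higher without overlap and 0 lower. Their median was 0.53 with 0 calls, and their summed signal was 25173 to 28628 in the mutants against 17680 to 21897 in wild type. *Wt1*, which marks the mesothelium of the septum transversum, was at 0.83 (SE 0.15, limma's adjusted p = 0.0605). Markers of foregut epithelium did not move together, with 3 of 7 positive, a median of -0.12 and summed signals of 110432 to 135127 and 99714 to 119019. *Hhex* is also expressed in the thyroid bud. Of 5 thyroid genes listed, not all of them specific to the bud at this stage, *Nkx2-1* was at -0.88 (SE 0.15, limma's adjusted p = 0.0515) and *Tg* was at 0.05. The genes *Pax8* and *Tshr* passed the background flag on 0 arrays, and *Foxe1* passed it in 1 mutant and 2 wild-type pools and was not tested. Whether the tissue held thyroid bud was not tested. The summed signal of the 2 tested thyroid genes was 323 to 471 in the mutants and 503 to 603 in wild type. *Prox1* is expressed in lymphatic endothelium and in heart muscle, which the dissection was meant to leave out. Cardiomyocyte genes nevertheless read high in both genotypes, with *Myl7* at a mean of 17.10 in the mutants and 17.09 in wild type. *Tnnt2* was at 14.66 in the mutants and 14.43 in wild type. Of 9 cardiomyocyte markers 8 were positive (3 in the authors' values as deposited), with a median of 0.24, no separation and summed signals of 274244 to 409010 and 221794 to 332285. Of 12 endothelial markers 8 were positive (5 with quantile normalization and 0 in the authors' values as deposited), with a median of 0.05 and summed signals of 29575 to 39243 and 32431 to 33837, and the lymphatic marker *Lyve1* was at 0.57 while *Flt4* was at -0.62.

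*Onecut1*, *Nr5a2* and *Prox1* also mark the pancreatic bud. There *Ptf1a*, the factor of exocrine progenitors, was at 1.69 (SE 0.40, limma's adjusted p = 0.136). It was well above background in 4 mutant but only 2 wild-type pools, so it was tested through the mutant pools alone. Its wild-type values, 3.94, 4.89 and 4.38, were dim, which limits the size of this difference. Its same-slide differences were 2.86, 0.12 and 2.13, and it was 0.83 with quantile normalization and 2.18 with 75th percentile scaling. *Nkx6-1* was at -0.85 (SE 0.16, limma's adjusted p = 0.0676), and -0.96 without mutant pool 1 (limma's adjusted p = 0.0408). With any other pool left out it was not called (limma's adjusted p from 0.124 to 0.297). The median of the 5 tested markers was -0.18, with summed signals of 3995 to 5714 and 6393 to 6830. *Hnf4a* and the plasma protein genes are also expressed in the visceral endoderm of the yolk sac. Its 4 markers were all positive (1 of 4 in the authors' values as deposited), with a median of 0.16 and summed signals of 5303 to 5927 and 4655 to 5853. *Lrp2* was the largest at 0.70 and not called (limma's adjusted p = 0.136), and it was 0.84 without mutant pool 4 (limma's adjusted p = 0.0332). *Cubn* was at 0.13. Erythroid genes had 6 of 6 negative differences (3 of 6 in the authors' values set to 1 median) and a median of -0.44, with summed signals of 259390 to 408903 in the mutants and 356311 to 581710 in wild type. The tissue carried its own markers in both genotypes, and of 8 posterior second heart field genes 6 were lower in the mutants by mean, with *Foxf2*, a forkhead factor, called at -2.43 (SE 0.18, limma's adjusted p = 0.00215), and -2.42 without mutant pool 2. No list in this paragraph or the one before it had a call except that of *Foxf2*. The part of these tissues in the values of the liver-enriched factors was not tested.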

How the data were processed

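For each spot, the scan files deposited by the authors give mean signal and background as intensity, extracted by Agilent Feature Extraction 10.5.1.1 per the labels, and the authors' normalized log2 values are deposited separately. The labels' entries for strain and genotype are exchanged and were read by content. Each array has 43379 spots for 41174 probes, none saturated. Here, mean signals were corrected by normexp with 153 negative control spots (offset 50), 155 to 206 outlier spots per array were left out, arrays were normalized by an own implementation of VSN (trimming share 0.9, 7 iterations, 5 strata; tested on simulated data), and spots of a probe were averaged. Probes with at least 2 values per genotype were compared with limma 3.58.1 in R 4.3.3, two-sided, over all 7 arrays; SAM, the study's test, was not used. Nothing states that pools came from separate litters, so p-values measure only the spread between these pools.

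Genes other than the members were read by their tested probe with the highest mean, and named if called or among the 3 largest differences of their list, and some genes that this rule takes are not reported here. The members and lists were chosen with earlier results of these data known. Lists were partner factors, family relatives, metabolic regulators, targets, hepatoblast products, Hedgehog targets and markers of 9 tissues. Some genes are in more than 1 list, as *Onecut2* is among partner factors and family relatives. Replicate numbers mark a shared slide and so pair the samples. Deviations from the genotype means of same-slide pools correlated at 0.19, 0.24 and 0.03. Alternatives changed the normalization, background correction, filter on dim probes, outlier spots, probe choice and slide block, or left out each pool. Promoter windows and gene lengths are RefSeq's (GRCm38.p6). Plots used matplotlib.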

Additional observations from a re-analysis of the deposited data

Results flagged for a closer look

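Among 71 probes and genes checked in the 4 mutant pools, 4 had 1 pool far from the other 3, by a gap that is a larger share of their range than Dixon's critical value. Chance gives about 1 in 20. None is a member. The gap was 0.960 of the range for *Rora*, low in mutant pool 4 (4.83 against 6.13 to 6.19; -0.10 in place of -0.43 without that pool), and 0.951 for *Apoa1*, low in mutant pool 1 (8.82 against 9.36 to 9.38). It was 0.900 for *Lrp2*, low in mutant pool 4 (9.49 against 10.03 to 10.09), and 0.862 for *Lyve1*, high in mutant pool 2 (9.39 against 8.67 to 8.77). Groups of 3 wild-type pools were not checked.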

How the results depend on the processing

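The number of members with a higher mean in the mutants was 7 of 7 as reported, 6 to 7 with 1 pool left out (*Nr5a2* was at -0.03 without wild-type pool 1) and 3 in the authors' values as deposited. Of 119 member differences under alternatives, 108 moved by less than 1 SD between pools. Besides the authors' values, the 4 that moved further were *Creb3l3* with quantile normalization (1.21) and *Hhex* (0.38), *Prox1* (0.30) and *Hnf4a* (0.34) as the mean over their tested probes. Calls depended more on the processing. Of all probes, 129 were called, and 57 with 75th percentile scaling (33.3% of them higher in the mutants, against 47.3%), 0 in the authors' values (28 at an unadjusted p under 0.05) and 0 with these set to 1 median (1040 at an unadjusted p under 0.05), 33 of 34747 with no filter on dim probes, 11 with the replicate block and 12 to 139 with 1 pool left out (36 without mutant pool 2, 12 without mutant pool 3, 72 without mutant pool 4, 18, 31 and 42 without wild-type pools 1, 3 and 4). Hepatoblast products called higher were 7, and 1 with quantile normalization, 0 with percentile scaling, in the authors' values, with these set to 1 median, with no filter on dim probes and with the replicate block, 4 with no background correction, 4 with outlier spots kept, 11 with the mean over probes and 0 to 10 with 1 pool left out. Partner factors called were 0, and 1 with the slide as a random block and with the mean over probes. Family relatives called were 0 under every alternative. No direction of a called gene named here reversed. The cause of these shifts was not tested. Dim signal limits the further probes of *Hnf4a* and *Cebpa* and those of *Nr1h4* and *Nr1i3*.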

Other observations

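Over the 7 pools, the genes whose pattern was most like a member's were ranked by Pearson's r on the log2 values, as a description over pools that fall into 2 genotypes. For *Creb3l3* they included *Lect2* (r = 0.995), a secreted hepatocyte protein, and *AI314831* (0.988), with differences of 1.57 and 0.66 on the log2 scale. For *Hhex* they were *Upb1* (0.987), an enzyme of pyrimidine breakdown, *Slc13a4* (0.986), a sulfate transporter, and *Tbx18* (0.985), which marks the septum transversum and proepicardium, with differences of 0.53, 0.54 and 0.47. For *Prox1* they were *Sema3a* (0.991), *Rnf213* (0.989) and *Fgd5* (0.988), with differences of 0.15, 0.57 and 0.19. For *Hnf4a* they were *Erap1* (0.995), *Slc22a18* (0.987) and *Osgin1* (0.986), with differences of 0.20, 0.27 and 0.96. Each is among the 3 highest of the 14891 tested genes, and 7 points leave many genes near such values.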
